A study of Gallus gallus with 28 samples.

Results

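Gene expression in the intestine of male chicks was compared between d1, the day after hatch (4 arrays), and the day of hatch itself (4 arrays), 8 of the 28 Affymetrix chicken arrays of the series. The other arrays covered embryonic days 18 and 20 (e18 and e20) and days 3, 7 and 14 after hatch (d3, d7 and d14), 4 at each age. The arrays of both ages were chosen by the age given in their labels, and the genes by level alone: for a symbol with several probe sets the one of highest mean signal in the series was kept, and 8396 of 13009 genes had a log2 intensity over 4 in at least 4 arrays. No treatment or genotype is given for any array, and both groups shared sex, tissue, extraction kit and biotin label. The labels call the tissue whole intestine and the series text small intestine. They name 6 birds per age, 2 lines and 2 pools without tying any to an array, so it is not known whether 4 arrays stand for separate birds, and p-values here reflect array-to-array spread alone, which may be technical. The number of arrays, 4 per age, limits the precision. The labels do not say whether or when the d1 chicks were fed.

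Before hatch a chick lives on yolk, which is mostly lipid and protein and almost free of carbohydrate, and yolk goes on entering the gut for some days after hatch. The enterocytes that line the villi carry the hydrolases that finish digestion at the brush border and the membrane carriers that take up sugars, amino acids, peptides and ions. They are replaced from dividing cells in the crypts, and in the chick around hatch dividing cells are also found along the villi. The first day after hatch is when feed, and the microbes and plant compounds that come with it, can first reach this epithelium.

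The enterocyte identity of the tissue was clear at both ages. Villin (VIL1), the actin bundler of microvilli, averaged 12.79 ± 0.24 in d1 arrays and 12.72 ± 0.07 in hatch arrays (log2 intensity, SD, n = 4 each), and the intestinal transcription factor CDX2 averaged 10.79 ± 0.09 in d1 arrays and 10.60 ± 0.07 in hatch arrays. Neither was called in the fit across all genes (limma adjusted p = 0.644 and 0.169). Other such genes did change. Of 19 tested genes of microvilli and enterocyte transcription factors, 5 rose (26.3%, against 12.5% of all tested genes). In the same list 6 fell (31.6%, against 22.7%), with changes between −1.40 and 1.40 and a median of 0.01. Smooth muscle, connective tissue and nerve were also in the tissue, so in this bulk RNA fewer cells of a type and less RNA per cell cannot be told apart.

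The d1 arrays differed from every other array of the series in one technical measure. The 3 control transcripts (actin, EF1A and GAPDH) have probe sets near both ends, and a large gap of 3′ over 5′ signal is read as a sign of short or degraded RNA or labelled product. The mean gap was 1.68 to 1.97 on the log2 scale in d1 arrays, against 0.649 to 0.940 in hatch arrays, and the highest gap on any array of another age was 1.57, at e20. The actin 5′ probe set read 11.08 to 11.70 in d1 arrays and 12.45 to 12.72 in hatch arrays, while the 3′ probe set read 14.36 to 14.47 in d1 arrays and 14.20 to 14.42 in hatch arrays. The level of control probe sets with no gene, taken as background, was also higher, at 3.37 to 3.54 in d1 arrays against 3.15 to 3.29 in hatch arrays. Correlations across the 8396 genes, which are not independent replicates, were 0.985 to 0.994 among d1 arrays, 0.984 to 0.992 among hatch arrays and 0.968 to 0.982 between both ages. Since no array of another age had a gap as large as any d1 array, age and gap cannot be fully told apart. Many of the groups of genes below are therefore given also in a fit with the gap as a covariate and with the d3 arrays in the place of the d1 arrays, both chosen after seeing the data. The gap of the d3 arrays, 0.897 to 1.27 with a mean of 1.08, was smaller than at d1. It was still larger on average than that of the hatch arrays, whose mean was 0.851.

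**Figure D1:**
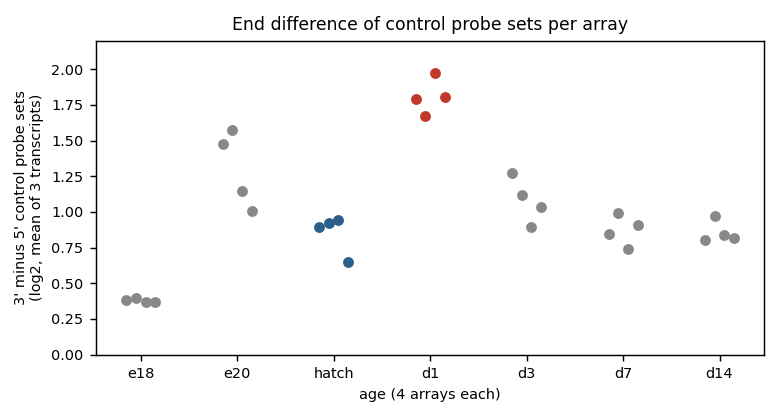
Mean 3′ minus 5′ difference of the actin, EF1A and GAPDH control probe sets (log2, y axis) for each of the 28 arrays by age (x axis), with d1 arrays in red, hatch arrays in blue and other ages in grey. The 4 d1 arrays lie at 1.68 to 1.97, above every other array, and the hatch arrays lie at 0.649 to 0.940.

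Limma called 2959 genes between d1 and hatch at an adjusted p under 0.05, 35.2% of those tested. At the deposited scale 1051 (12.5%) rose at d1 and 1908 (22.7%) fell, but this split depended on the scaling, with 1473 higher and 1516 lower after centring each array on its median and 1481 higher and 1524 lower after quantile normalisation. A change of at least 2-fold was found for 109 genes that rose and 236 that fell. The median change over all tested genes was −0.05 on the log2 scale. Per array, the median linear intensity was 7.71 to 8.00 in d1 arrays and 7.41 to 7.63 in hatch arrays. The upper quartile of log2 signal went the other way, at 5.79 to 5.88 in d1 arrays and 5.97 to 6.00 in hatch arrays. The 4 d1 arrays all lay above the 4 hatch arrays for 1275 genes (15.2%) and all below for 1876 genes (22.3%).

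With the end gap as a covariate the median standard error was 0.31 in place of 0.14, and 272 genes (3.24%) passed, 97 with a rise and 175 with a fall. These 97 and 175 of 8396 genes are the background for the called covariate counts below. Counts below at an unadjusted p under 0.05 have no share of all genes beside them, so they show neither an excess nor a lack. In that fit the slope on the gap comes from differences among arrays of the same age. It is carried over the wider difference in gap between d1 and hatch. Of the 1051 genes higher at d1, 843 (80.2%) kept their sign in that fit and 63 were still called. Of the 1908 lower genes, 1548 (81.1%) kept their sign and 131 were still called. Where a called gene had other probe sets over the filter, one of these was called in the opposite direction for 105 of 579 genes higher at d1 (18.1%) and for 23 of 685 genes lower at d1 (3.36%).

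A comparison that shares no array with this one, d3 against e20, brackets hatch from both sides. It called 4857 genes (57.8%), 1946 higher at d3 (23.2%) and 2911 lower at d3 (34.7%). Of the 1051 genes higher at d1, 568 (54%) were also higher at d3 than at e20 and 138 (13.1%) were lower. Of the 1908 genes lower at d1, 1016 (53.2%) were also lower at d3 than at e20 and 206 (10.8%) were higher. With d3 in place of d1 against the same hatch arrays, 1262 genes (15%) were higher and 1865 (22.2%) lower. These shares are the d3 background in the counts below.

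The largest rises were in a pair of cytochrome P450 genes of family 1, enzymes that oxidise planar aromatic compounds and that the aryl hydrocarbon receptor switches on in many vertebrates. CYP1A2 (gene ID 396051) read 12.95, 12.50, 11.09 and 11.56 in d1 arrays, against 4.73, 5.77, 7.62 and 6.97 in hatch arrays. The ages were more than 3 log2 units apart at their nearest arrays, and the change was 5.75 ± 0.62 (SE, limma adjusted p = 2.89e-07), which is 53.8-fold. CYP1A1 (gene ID 396052) read 10.39, 10.29, 8.34 and 9.04 in d1 arrays, against 3.64, 3.77, 4.76 and 5.09 in hatch arrays, a change of 5.20 ± 0.49 or 36.7-fold (limma adjusted p = 7.08e-08). For both genes replicates 1 and 2 were the highest of the d1 arrays and the lowest of the hatch arrays. Both rises were called with the end gap as a covariate, at 6.29 ± 1.44 (limma adjusted p = 0.0245) for CYP1A2 and 6.93 ± 1.08 (limma adjusted p = 0.00195) for CYP1A1.

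By age, CYP1A2 averaged 3.6 at e18, 3.8 at e20, 6.3 at hatch, 12.0 at d1, 9.5 at d3, 9.4 at d7 and 6.8 at d14. CYP1A1 averaged 3.5, 3.4, 4.3, 9.5, 8.8, 9.4 and 7.0 at the same ages. The mean of CYP1A2 was thus highest at d1, and that of CYP1A1 was high from d1 to d7.

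Of 36 tested genes of xenobiotic metabolism and efflux (41 on the array), 8 rose (22.2%, against 12.5% of all tested genes). In the same list 1 fell (2.78%, against 22.7%), and the median change was 0.16. CYP2D6, a P450 of drug metabolism in mammals, rose by 1.11 ± 0.24, with 11.11 ± 0.04 in d1 arrays and 10.00 ± 0.53 in hatch arrays (limma adjusted p = 0.000924). GSTA2, a glutathione transferase, changed by −1.19 ± 0.23, with 10.66 ± 0.40 in d1 arrays and 11.85 ± 0.06 in hatch arrays (limma adjusted p = 0.000263). With the covariate 3 genes of the list were called higher and 0 lower, against 97 and 175 of 8396 over all genes. With d3 in place of d1 the counts were 7 higher (d3 background 15%) and 12 lower (d3 background 22.2%).

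**Figure D2:**
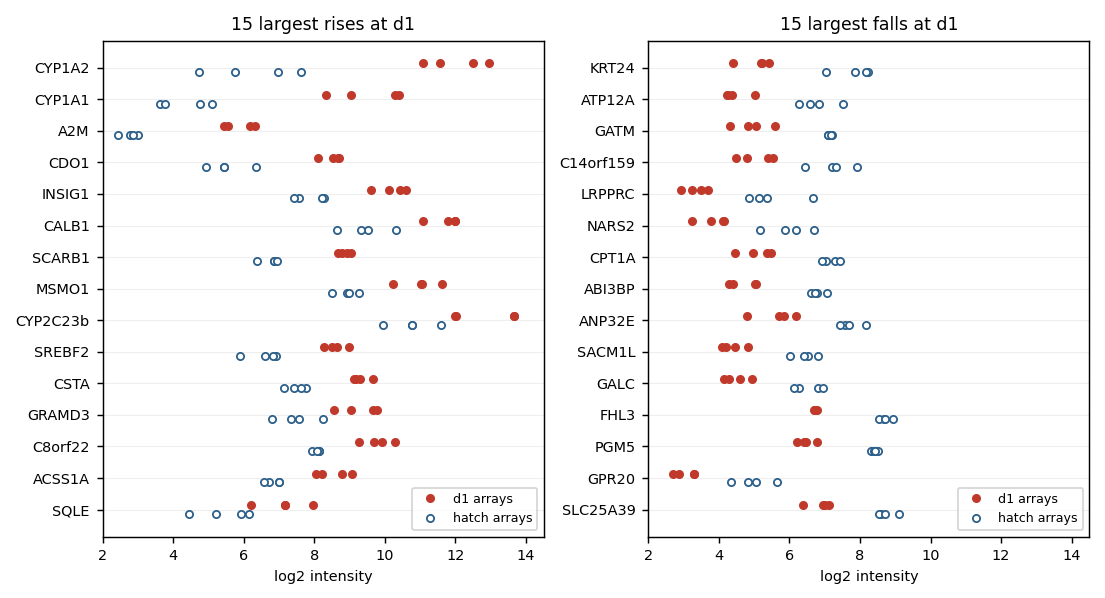
Log2 intensity (x axis) on each of the 4 d1 arrays (filled red) and 4 hatch arrays (open blue) for the 15 largest rises (left) and 15 largest falls (right) among called genes whose arrays of both ages do not overlap. CYP1A2 and CYP1A1 stand out with changes of 5.75 and 5.20, and the largest fall is that of KRT24 at −2.75.

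Genes of cholesterol synthesis rose together. Of 15 tested genes (18 on the array), 13 rose (background 12.5%) and 1 fell (background 22.7%), with a median change of 0.77. INSIG1 (gene ID 420442), which holds the sterol-sensing complex in the endoplasmic reticulum and is itself a target of sterol regulatory element-binding proteins, read 10.11, 10.60, 10.44 and 9.62 in d1 arrays, against 8.27, 8.23, 7.56 and 7.43 in hatch arrays. All 4 d1 arrays lay above the hatch arrays, and the change was 2.32 ± 0.20 (4.99-fold, limma adjusted p = 3.32e-08). MSMO1 (gene ID 422423), the sterol methyl oxidase, read 11.02, 11.63, 11.04 and 10.22 in d1 arrays, against 9.27, 8.93, 8.49 and 8.98 in hatch arrays, a change of 2.06 ± 0.22. SREBF2 (gene ID 395304), the transcription factor that drives this pathway, read 8.49, 8.64, 8.99 and 8.28 in d1 arrays, against 6.93, 6.82, 6.61 and 5.91 in hatch arrays, a change of 2.04 ± 0.21. SQLE, squalene epoxidase, changed by 1.70 ± 0.36, with its lowest d1 array (6.22) just above its highest hatch array (6.14). In all 4 of these genes replicate 2 or 3 was the highest d1 array and replicate 4 the lowest.

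The 1 member that fell was MVK, mevalonate kinase, at 6.08 ± 0.32 in d1 arrays and 6.58 ± 0.21 in hatch arrays (change −0.50 ± 0.15). With the covariate the median of the list was 0.75 with 2 genes called higher, INSIG1 at 1.84 ± 0.46 and MSMO1 at 2.17 ± 0.51. With d3 in place of d1 the median was 1.63, with 14 genes higher (d3 background 15%) and 1 lower (d3 background 22.2%). Against e20 the d3 arrays gave 14 higher and 1 lower as well, with a median of 2.27. INSIG1 averaged 7.87 at hatch, 10.19 at d1 and between 11.3 and 11.5 at d3, d7 and d14, so d1 lay between its level at hatch and its later level.

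Genes of lipid absorption were called in both directions. SCARB1 (gene ID 416814), the receptor that takes up cholesterol from high-density lipoprotein and is also found on the brush border, read 8.80, 8.68, 8.92 and 9.05 in d1 arrays, against 6.87, 6.38, 6.86 and 6.95 in hatch arrays. Its change was 2.10 ± 0.37 (4.29-fold, limma adjusted p = 0.000129), and 3.04 ± 0.84 with the covariate (limma adjusted p = 0.0475). APOA4, an apolipoprotein of chylomicrons, averaged 14.30 ± 0.41 in d1 arrays and 13.09 ± 0.28 in hatch arrays. APOB, the structural protein of these particles, rose by 1.11 ± 0.26 but changed sign with the covariate, to −0.45 ± 0.49. Of 23 tested genes of lipid absorption, 7 rose (30.4%, background 12.5%) and 3 fell (13%, background 22.7%). The changes lay between −0.78 and 2.10, with 15 above 0 and 8 below. The median was 0.21, also 0.21 with the covariate and −0.01 with d3 in place of d1.

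Among genes of fatty acid oxidation the largest change was a fall. CPT1A (gene ID 423118), which admits long-chain fatty acids to mitochondria and limits their oxidation, read 5.47, 5.36, 4.44 and 4.95 in d1 arrays, against 7.04, 7.29, 6.93 and 7.44 in hatch arrays. Its change of −2.12 ± 0.24 (4.34-fold lower at d1, limma adjusted p = 3.94e-07) was −1.04 ± 0.49 with the covariate (limma adjusted p = 0.238). Its mean was 7.2 at hatch, 5.1 at d1 and 6.7 at d3, and it was higher at d3 than at e20. Of 19 tested genes of the list 4 rose (21.1%, background 12.5%), among them PPARA, the nuclear receptor that governs fatty acid oxidation (change 0.75 ± 0.20). CPT1A was the 1 that fell (5.26%, background 22.7%), while 9 of the 19 changes were above 0 and 10 below. The median was −0.01, against 0.33 with the covariate. With d3 in place of d1 it was −0.31, with 1 gene higher (d3 background 15%) and 9 lower (d3 background 22.2%).

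**Figure D3:**
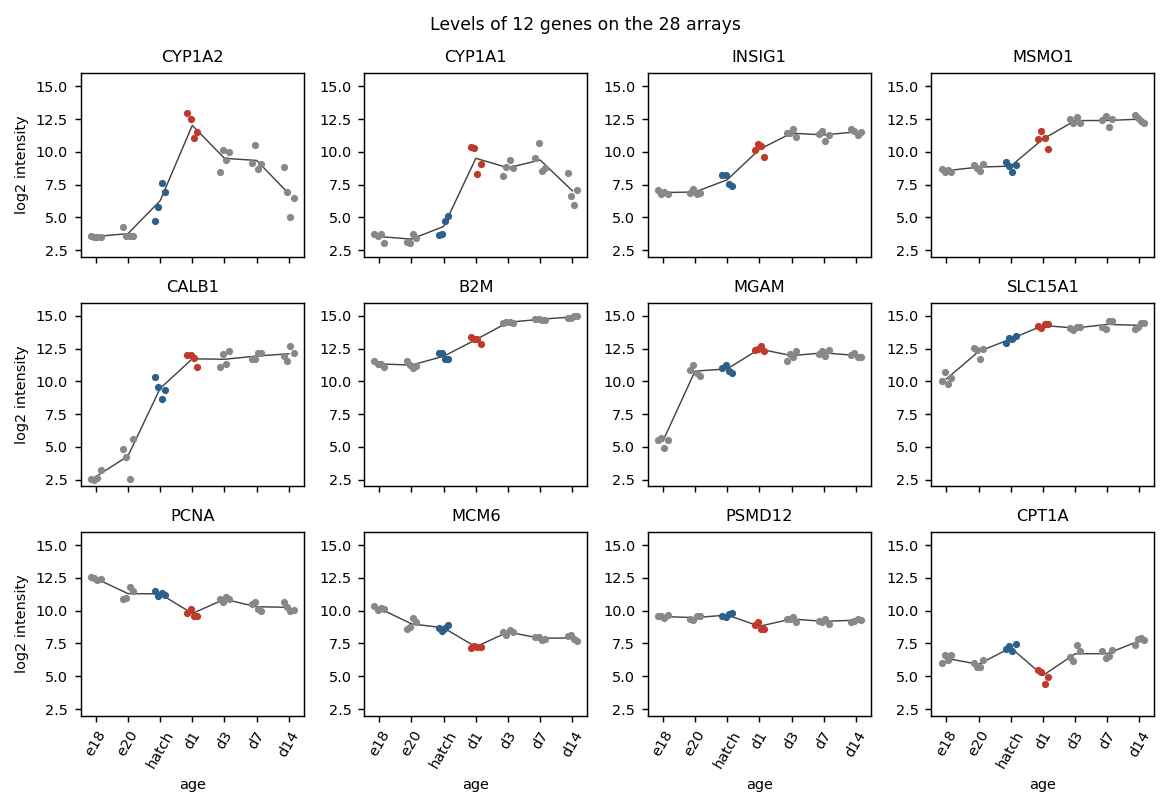
Log2 intensity (y axis) of 12 genes on the 28 arrays by age (x axis), with d1 arrays in red, hatch arrays in blue, other ages in grey and a line through the means of 4 arrays. CYP1A2, PCNA, MCM6, PSMD12 and CPT1A have their highest or lowest mean at d1, while INSIG1, MSMO1 and B2M have higher means at d3 than at d1.

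Among hydrolases of the brush border more genes rose than fell. Of 21 tested hydrolases (23 on the array), 10 rose (background 12.5%) and 2 fell (background 22.7%), with a median of 0.49. With the mean of all probe sets of each gene 6 rose, a count with no share of all genes under that rule beside it. MGAM (gene ID 425545), maltase-glucoamylase, which splits starch fragments, read 12.39, 12.44, 12.69 and 12.32 in d1 arrays, against 11.05, 11.27, 10.82 and 10.66 in hatch arrays (change 1.51 ± 0.18, 2.85-fold, limma adjusted p = 1.38e-06). ACE, a peptidase that removes dipeptides, averaged 12.43 ± 0.30 in d1 arrays and 11.09 ± 0.33 in hatch arrays, and ENPP3, a nucleotide phosphodiesterase with 1 of its 2 other probe sets called in the opposite direction, 10.61 ± 0.25 in d1 arrays and 9.56 ± 0.38 in hatch arrays. Sucrase-isomaltase (SI), for which the mean of all its probe sets went the other way (−0.14), averaged 14.31 ± 0.07 in d1 arrays and 13.61 ± 0.17 in hatch arrays, and aminopeptidase N (ANPEP) 13.68 ± 0.12 in d1 arrays and 12.88 ± 0.13 in hatch arrays. The members that fell were ENPP6, a choline phosphodiesterase (−1.06 ± 0.19), and carboxypeptidase M (CPM, −0.70 ± 0.14).

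No hydrolase was called in either direction with the covariate (4 higher and 0 lower at an unadjusted p under 0.05), where the median was 0.60. At d3 against hatch the median was −0.42, with 6 higher (d3 background 15%) and 5 lower (d3 background 22.2%). The d1 means of several members were above those of d3: ACE averaged 12.4 at d1 and 11.7 at d3, and MGAM 12.5 at d1 and 12.0 at d3.

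Carriers of sugars and peptides changed gene by gene. SLC15A1 (gene ID 378789), the peptide carrier, read 14.21, 14.07, 14.33 and 14.40 in d1 arrays, against 12.94, 13.30, 13.19 and 13.47 in hatch arrays, a change of 1.03 ± 0.19 (limma adjusted p = 0.000155). SLC5A1, the sodium-glucose cotransporter, averaged 12.29 ± 0.14 in d1 arrays and 11.56 ± 0.09 in hatch arrays (change 0.73 ± 0.12, limma adjusted p = 7.59e-05). SLC2A5 (gene ID 419438), the fructose carrier, read 8.16, 8.11, 7.33 and 7.72 in d1 arrays, against 5.96, 6.16, 6.74 and 7.04 in hatch arrays, a change of 1.36 ± 0.26, and 2.28 ± 0.57 with the covariate (limma adjusted p = 0.031). Its lowest d1 array was just above its highest hatch array. SLC2A9, a urate carrier, went the other way, with 4.80, 4.63, 4.99 and 4.62 in d1 arrays, against 6.21, 6.21, 6.71 and 6.76 in hatch arrays (change −1.71 ± 0.25). Of 17 tested members 3 rose (17.6%, background 12.5%) and 3 fell (17.6%, background 22.7%), with a median of 0.10.

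Genes of sugar metabolism were called in both directions. KHK, ketohexokinase, which phosphorylates fructose, averaged 8.89 ± 0.14 in d1 arrays and 7.88 ± 0.16 in hatch arrays. PFKFB3, which makes the sugar bisphosphate that stimulates glycolysis, averaged 8.78 ± 0.18 in d1 arrays and 7.69 ± 0.07 in hatch arrays. PCK2, the mitochondrial phosphoenolpyruvate carboxykinase, averaged 7.60 ± 0.13 in d1 arrays and 6.43 ± 0.10 in hatch arrays. LDHB, a lactate dehydrogenase subunit, fell by 0.67 on the log2 scale. These were 3 of the 4 genes that rose and 1 of the 2 that fell among 21 tested genes of glycolysis, gluconeogenesis and fructose metabolism (19% higher and 9.52% lower, against 12.5% and 22.7% of all tested genes). None was called with the covariate, where the median of the list was 0.21 against 0.20 without it.

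Amino acid carriers gave few calls. SLC36A1, a proton-coupled carrier of small amino acids, changed by 1.14 ± 0.23 (0.08 ± 0.47 with the covariate), and SLC16A10, which passes aromatic amino acids to the blood side, by 1.03 ± 0.28. The other 2 of the 4 called, SLC7A5 and SLC38A4, were lower at d1, with means near background. Of the 17 tested members 13 were not called, while 2 rose (11.8%, background 12.5%) and 2 fell (11.8%, background 22.7%).

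Among carriers of ions more genes rose than fell. SLC9A3, the sodium-proton exchanger of the brush border, read 5.07, 5.22, 5.21 and 4.77 in d1 arrays, against 3.52, 4.22, 3.15 and 3.73 in hatch arrays (change 1.41 ± 0.22, limma adjusted p = 2.12e-05). Of 28 tested ion, acid-base and sulfate carriers 9 rose (background 12.5%) and 2 fell (background 22.7%), with a median of 0.18 that was 0.16 with the covariate, where 0 were called higher and 1 lower. At d3 against hatch 10 were higher (d3 background 15%) and 2 lower (d3 background 22.2%). CALB1 (gene ID 396519), the cytosolic calcium-binding protein that vitamin D induces in the chick intestine, read 11.99, 11.99, 11.79 and 11.08 in d1 arrays, against 10.31, 9.53, 8.65 and 9.32 in hatch arrays. Its change of 2.26 ± 0.44 (4.79-fold, limma adjusted p = 0.000283) was 2.81 ± 1.00 with the covariate, where it was not called (limma adjusted p = 0.118). VDR, the vitamin D receptor, averaged 7.64 ± 0.09 in d1 arrays and 7.00 ± 0.09 in hatch arrays. Of 8 tested genes of calcium absorption 3 rose (37.5%, background 12.5%) and 0 fell (background 22.7%). CALB1 had climbed before hatch, at 2.7 at e18, 4.3 at e20 and 9.5 at hatch.

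HEPH, the copper oxidase that helps iron leave the enterocyte, averaged 8.89 ± 0.14 in d1 arrays and 7.89 ± 0.25 in hatch arrays. AMN, which anchors the receptor for cobalamin bound to intrinsic factor, averaged 10.04 ± 0.09 in d1 arrays and 8.73 ± 0.21 in hatch arrays (change 1.30 ± 0.14, limma adjusted p = 3.03e-07) and was called with the covariate (limma adjusted p = 0.031). Among 15 tested genes of retinoid and cobalamin handling AMN was the 1 that rose (6.67%, background 12.5%), and 2 fell (13.3%, background 22.7%). Of the 28 genes of iron, copper and zinc handling tested, 4 rose (14.3%, background 12.5%) and 4 fell (14.3%, background 22.7%).

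One gene of bile acid uptake and signalling was called. FGF19, the hormone that bile acids induce in the ileum, read 5.90, 7.20, 5.65 and 5.15 in d1 arrays, against 7.74, 8.40, 8.41 and 7.16 in hatch arrays. It changed by −1.95 ± 0.53 (limma adjusted p = 0.00568), with replicate 2 at d1 just above replicate 4 at hatch. SLC10A2, the ileal bile acid carrier, averaged 7.80 ± 0.39 in d1 arrays and 6.97 ± 0.32 in hatch arrays and was not called (limma adjusted p = 0.0681). Of the 12 tested genes 11 were not called and 1 fell (8.33%, background 22.7%), with a median of 0.02.

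Solute carriers were called in both directions. Of 166 tested (295 on the array), 27 rose (16.3%, background 12.5%) and 23 fell (13.9%, background 22.7%), with a median of 0.06. The count of rises was 16 with the mean of all probe sets and 56 of 295 with no filter. The total over all genes with no filter is given near the end of the text. None is given with the mean of all probe sets, so that count cannot be set against a general loss. The largest fall in the list was that of SLC25A39, a mitochondrial carrier of glutathione, which averaged 6.86 ± 0.33 in d1 arrays and 8.73 ± 0.26 in hatch arrays (change −1.87 ± 0.18), and −0.52 ± 0.28 with the covariate. After SLC2A9, given above, SLC22A13, an organic anion carrier, changed by −1.60 ± 0.36, and SLC29A1, an equilibrative nucleoside carrier, by −1.16 ± 0.19. Of the 24 tested mitochondrial carriers 0 rose, also at an unadjusted p under 0.05, and 5 fell (20.8%, near the 22.7% of all tested genes). With the covariate 5 solute carriers were called higher and 2 lower, against 97 and 175 of 8396 over all genes. With d3 in place of d1 the counts were 30 higher (d3 background 15%) and 32 lower (d3 background 22.2%).

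**Figure D4:**
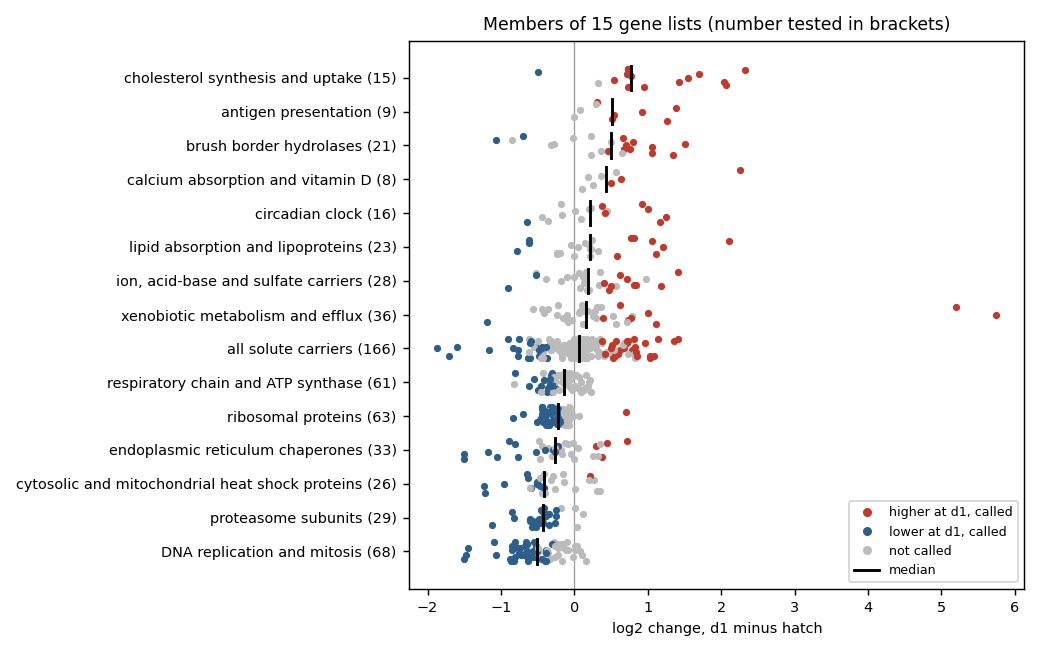
Log2 change, d1 minus hatch (x axis), of each tested member of 15 gene lists (y axis, number tested in brackets), in red where called higher at d1, in blue where called lower and in grey where not called, with the list median as a black bar. Medians run between 0.77 for cholesterol synthesis and −0.50 for DNA replication and mitosis.

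Genes of antigen presentation were called higher, while the T cell markers CD3E and CD3D were not called. B2M (gene ID 414830), the light chain of class I molecules, read 13.36, 13.23, 13.23 and 12.87 in d1 arrays, against 12.15, 12.13, 11.69 and 11.66 in hatch arrays (change 1.27 ± 0.12, limma adjusted p = 9.7e-08). The class I heavy chain BF2 averaged 10.34 ± 0.35 in d1 arrays and 8.95 ± 0.92 in hatch arrays, but changed sign with the covariate (−0.70 ± 1.02). The peptide transporter subunit TAP2 averaged 8.02 ± 0.25 in d1 arrays and 7.09 ± 0.29 in hatch arrays. Of 9 tested members 6 rose (background 12.5%) and 0 fell (background 22.7%, and also 0 at an unadjusted p under 0.05), with a median of 0.52. With the covariate the median was 0.51 with no member called (4 higher at an unadjusted p under 0.05). With d3 in place of d1 the median was 2.00 with 8 members higher (d3 background 15%).

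CD3E and CD3D, chains of the T cell receptor complex, had overlapping arrays. CD3E averaged 5.53 ± 0.16 in d1 arrays and 5.34 ± 0.24 in hatch arrays, and CD3D 5.94 ± 0.10 in d1 arrays and 6.10 ± 0.19 in hatch arrays (limma adjusted p = 0.536 and 0.626). Of 11 tested T cell and cytotoxic genes 1 rose (9.09%, background 12.5%) and 1 fell (9.09%, background 22.7%). CD4, GZMA and ICOS of this list were at or below background on every d1 and hatch array. They passed the filter only through later ages and could hardly be called. GNLY (granulysin-like, change 0.61 ± 0.18, with arrays that overlap) rose and IL7R fell. Of the 11 tested, 7 were higher when d3 took the place of d1 (d3 background 15%). The B cell joining chain JCHAIN was at 2.60 to 2.67 in d1 arrays and 2.55 to 2.60 in hatch arrays, below background at both ages. PIGR, the epithelial receptor that carries IgA to the lumen, read 4.74, 4.14, 6.43 and 6.00 in d1 arrays, against 3.82, 3.67, 3.98 and 3.81 in hatch arrays (change 1.51 ± 0.34, limma adjusted p = 0.00145). Replicates 3 and 4 were the high d1 arrays, and all 4 lay above the hatch arrays. With the covariate PIGR changed by 0.87 ± 0.79 and was not called (limma adjusted p = 0.581).

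Some cytokines and an antimicrobial peptide also rose. IL15, a cytokine that enterocytes display to intraepithelial lymphocytes, averaged 11.10 ± 0.15 in d1 arrays and 10.09 ± 0.09 in hatch arrays (change 1.01 ± 0.23, limma adjusted p = 0.00139). TNFSF10, a death ligand, averaged 12.14 ± 0.35 in d1 arrays and 11.14 ± 0.11 in hatch arrays. LEAP2, which is both an antimicrobial peptide and a ligand of the ghrelin receptor, averaged 12.35 ± 0.18 in d1 arrays and 11.16 ± 0.29 in hatch arrays (change 1.19 ± 0.17, limma adjusted p = 7.92e-06). Of 27 tested cytokines, chemokines and receptors 5 rose (18.5%, background 12.5%) and 0 fell (background 22.7%). Several, among them IL8L2, CCL17, CCR6 and SOCS3, were at or below background on every d1 and hatch array, so no fall could be seen. With the covariate none of this list was called, and LEAP2 was not called. In that fit IL15 changed by 0.98 ± 0.53, TNFSF10 by 0.83 ± 0.44 and LEAP2 by 0.89 ± 0.38.

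Interferon-induced genes varied widely between arrays of each age. MX1, the antiviral GTPase, read 6.19, 7.18, 4.79 and 3.18 in d1 arrays, against 5.30, 8.09, 2.50 and 2.67 in hatch arrays, and its change of 0.70 ± 0.89 was not called (limma adjusted p = 0.584). The mean level of the 22 tested members ranged between 6.58 and 7.71 over d1 arrays and between 6.04 and 7.80 over hatch arrays. IRF1 and IRF7, transcription factors of the pathway, rose by 0.68 ± 0.17 and 0.70 ± 0.19, and 1 member, IRF8, fell by 0.49 on the log2 scale. These were the only calls, 9.09% higher (background 12.5%) and 4.55% lower (background 22.7%). The median change was 0.62, with 18 of the 22 above 0 and 4 below, and it was 0.42 with the covariate. With this spread between arrays, few calls do not show a lack of change. At d3 against hatch, 20 of the 22 were higher (d3 background 15%).

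Secretory cells gave mixed values. FCGBP, a protein of goblet cell mucus, averaged 12.70 ± 0.08 in d1 arrays and 11.44 ± 0.29 in hatch arrays (change 1.26 ± 0.16, limma adjusted p = 1.98e-06), and CLCA1, also secreted with mucus, 12.80 ± 0.36 in d1 arrays and 11.72 ± 0.31 in hatch arrays. AGR2, the disulfide isomerase that folds mucins, averaged 12.13 ± 0.16 in d1 arrays and 12.92 ± 0.14 in hatch arrays. Of 9 goblet cell genes tested 2 rose (22.2%, background 12.5%) and 3 fell (33.3%, background 22.7%). The median was −0.35, against 0.24 with the covariate. It was 0.71 with d3 in place of d1, where 4 were higher (d3 background 15%) and 1 lower (d3 background 22.2%). CHGA, a granule protein of endocrine cells, fell by 0.55 on the log2 scale, while the hormone CCK rose by 0.61 ± 0.24 (limma adjusted p = 0.0469). In the endocrine list 1 of 17 rose (5.88%, background 12.5%) and 3 fell (17.6%, background 22.7%).

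Genes of insulin signalling and of the clock were called in both directions. IRS2, an adaptor of the insulin receptor, averaged 10.00 ± 0.26 in d1 arrays and 8.74 ± 0.10 in hatch arrays (change 1.27 ± 0.23, limma adjusted p = 0.000189), and the insulin receptor INSR averaged 7.32 ± 0.32 in d1 arrays and 6.53 ± 0.08 in hatch arrays. GHR, the growth hormone receptor, read 4.24, 3.44, 4.20 and 4.53 in d1 arrays, against 5.82, 5.69, 5.62 and 5.83 in hatch arrays (change −1.64 ± 0.22), and DEPTOR, an inhibitor of mTOR kinase, changed by −1.20 ± 0.27. Of 19 tested genes of insulin and IGF signalling 6 rose (31.6%, background 12.5%) and 3 fell (15.8%, background 22.7%). The median was 0.12, against 0.15 with the covariate and 0.19 with d3 in place of d1. GHR had a mean of 7.9 at e18 and 7.0 at e20, so its decline began before hatch.

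Among 16 tested clock genes 6 rose (37.5%, background 12.5%) and 1 fell (6.25%, background 22.7%), with a median of 0.21. With the covariate the median was −0.10, with 2 called higher and 1 lower. At d3 against hatch 3 were higher (d3 background 15%) and 3 lower (d3 background 22.2%). NR1D2 (gene ID 396125), a nuclear receptor that represses the clock activator ARNTL, read 10.28, 10.03, 10.28 and 10.38 in d1 arrays, against 8.86, 8.96, 9.14 and 9.35 in hatch arrays (change 1.16 ± 0.17, and 1.94 ± 0.35 with the covariate, limma adjusted p = 1.35e-05 and 0.00571). PER3 and PER2, repressors of the clock, changed by 1.24 ± 0.35 and 1.00 ± 0.32. ARNTL averaged 5.41 ± 0.20 in d1 arrays and 6.06 ± 0.31 in hatch arrays, and was the 1 that fell. The labels do not give the hour of sampling, so a difference in time of day between the ages cannot be told apart from age.

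The largest fall of all was that of KRT24 (gene ID 395861), a keratin, at 5.41, 5.21, 4.42 and 5.22 in d1 arrays, against 8.21, 7.85, 8.16 and 7.04 in hatch arrays (change −2.75 ± 0.29, 6.74-fold lower at d1, limma adjusted p = 2.2e-07). It averaged 12.7 at e18 and 2.3 at d14, so the fall over this day was one step of a longer one. ATP12A, the non-gastric proton-potassium ATPase, changed by −2.33 ± 0.27, GATM, an enzyme of creatine synthesis, by −2.20 ± 0.29 and ABI3BP, a matrix protein, by −2.10 ± 0.26. KRT24, ATP12A and ABI3BP were also called with the covariate, at −2.88 ± 0.67, −3.22 ± 0.59 and −3.14 ± 0.54. GPR20, an orphan receptor, was at or below background on all 4 d1 arrays and was at least 2.85-fold lower at d1.

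Other large falls were followed by higher levels at d3. FHL3, a LIM domain protein, averaged 6.73 ± 0.03 in d1 arrays and 8.72 ± 0.17 in hatch arrays (change −1.98 ± 0.13, limma adjusted p = 3.76e-10), and its mean at d3 was 8.3. SACM1L, a phosphoinositide phosphatase, averaged 6.4 at hatch, 4.4 at d1 and 6.2 at d3. LRPPRC and NARS2, which serve mitochondrial RNA and translation, changed by −2.16 ± 0.30 and −2.15 ± 0.36, and with the covariate by −0.32 ± 0.56 and 0.55 ± 0.55. FHL3 was called with the covariate, at −1.07 ± 0.22 (limma adjusted p = 0.0153), and SACM1L, LRPPRC and NARS2 were not.

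The other large rises included 3 genes outside these groups. A2M (gene ID 418251), a plasma protease inhibitor, was at or below background on all 4 hatch arrays and read 5.57, 5.43, 6.31 and 6.17 in d1 arrays. It was at least 6.27-fold higher at d1 (limma adjusted p = 8.53e-07), with a mean of 3.9 at d3 and at d7. With the covariate A2M changed by 1.67 ± 0.77 and was not called (limma adjusted p = 0.232). CDO1, which oxidises cysteine on the way to taurine and sulfate, averaged 8.51 ± 0.27 in d1 arrays and 5.55 ± 0.59 in hatch arrays (change 2.96 ± 0.36). CSTA, an inhibitor of cysteine proteases, averaged 9.32 ± 0.24 in d1 arrays and 7.49 ± 0.27 in hatch arrays, and was called with the covariate (limma adjusted p = 0.0293).

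Genes of DNA replication and mitosis were lower at d1. Of 68 tested (69 on the array), limma called 0 higher, also at an unadjusted p under 0.05 (background 12.5%), and 41 fell (background 22.7%), with a median of −0.50, and 62 of the 68 changes were below 0. PCNA (gene ID 373984), the sliding clamp of DNA polymerase, read 9.85, 10.14, 9.57 and 9.58 in d1 arrays, against 11.46, 11.13, 11.33 and 11.20 in hatch arrays (change −1.50 ± 0.18, limma adjusted p = 1.59e-06). MCM6, a subunit of the replicative helicase, read 7.17, 7.34, 7.26 and 7.20 in d1 arrays, against 8.71, 8.48, 8.65 and 8.91 in hatch arrays (change −1.44 ± 0.14, limma adjusted p = 9.7e-08). BIRC5 (survivin), which acts in chromosome segregation, averaged 7.37 ± 0.24 in d1 arrays and 8.85 ± 0.16 in hatch arrays. For all 3 genes every d1 array lay below every hatch array.

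PCNA had its lowest mean of the 7 ages at d1. It averaged 12.5 at e18, 11.3 at e20, 11.3 at hatch, 9.8 at d1, 10.9 at d3, 10.3 at d7 and 10.3 at d14, and BIRC5 7.4 at d1 and 8.4 at d3. With d3 in place of d1 the median was −0.23 with 17 genes lower (d3 background 22.2%) and 0 higher (d3 background 15%). With the covariate the median was −0.61, with 3 genes called lower and 0 higher. At an unadjusted p under 0.05 there were 30 lower and 1 higher, given with no share of all genes at that threshold. PCNA changed by −0.71 ± 0.38 in that fit (limma adjusted p = 0.319). The list level averaged 7.17 to 7.33 over d1 arrays, against 7.71 to 7.84 over hatch arrays. The end gap was also apart in the d1 arrays, as given above.

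Crypt and progenitor genes had no common direction. OLFM4, a marker of crypt cells in mammals, averaged 10.68 ± 0.14 in d1 arrays and 11.61 ± 0.30 in hatch arrays (change −0.93 ± 0.16), with a mean of 12.8 at d3. The stem cell receptor LGR5 averaged 4.25 ± 0.61 in d1 arrays and 4.40 ± 0.38 in hatch arrays and was not called (limma adjusted p = 0.622). Of 22 tested genes 2 rose (9.09%) and 5 fell (22.7%), near the 12.5% and 22.7% of all tested genes. The median was −0.06, against −0.43 with the covariate and −0.09 with d3 in place of d1.

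Subunits of the proteasome, the complex that degrades ubiquitin-tagged proteins, were mostly lower. Of 29 tested, all those on the array, 25 fell (background 22.7%) and 0 rose (background 12.5%, and also 0 at an unadjusted p under 0.05), with a median of −0.43. PSMD10, an assembly chaperone, read 7.44, 7.44, 7.07 and 6.78 in d1 arrays, against 8.37, 8.03, 8.46 and 8.39 in hatch arrays (change −1.13 ± 0.17, limma adjusted p = 2.39e-05). PSMD12, a subunit of the lid, averaged 8.81 ± 0.29 in d1 arrays and 9.67 ± 0.13 in hatch arrays, and PSMB1, a subunit of the core, 10.99 ± 0.28 in d1 arrays and 11.81 ± 0.11 in hatch arrays. Replicates 3 and 4 were the lowest d1 arrays in all 3. With the covariate no subunit was called (2 lower at an unadjusted p under 0.05) and the median was −0.24, with PSMB1 at 0.04 ± 0.20. With d3 in place of d1 the median was −0.22, with 10 lower (d3 background 22.2%).

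Chaperones fell less uniformly. CRELD2 and HERPUD1, which endoplasmic reticulum stress induces, changed by −1.51 ± 0.21 and −1.51 ± 0.22, though HERPUD1 changed sign with the covariate (0.34 ± 0.27). SEL1L, which takes misfolded proteins out of the endoplasmic reticulum, rose by 0.72 ± 0.09. Of 33 tested genes of this list 4 rose (12.1%, near the background of 12.5%) and 12 fell (36.4%, background 22.7%). The medians were −0.27 without and −0.29 with the covariate, where 1 gene was called higher and 0 lower. At d3 against hatch 4 were higher (d3 background 15%) and 5 lower (d3 background 22.2%). HSP90AB1, a cytosolic heat shock protein, changed by −1.23 ± 0.23 and HSPA14, a ribosome-associated one, by −1.22 ± 0.16. Of 26 heat shock genes 1 rose (3.85%, background 12.5%) and 10 fell (38.5%, background 22.7%). Their medians were −0.41 without and −0.66 with the covariate, where 0 were called higher and 1 lower. For these the d3 counts against hatch were 2 higher (d3 background 15%) and 8 lower (d3 background 22.2%).

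Ribosomal proteins fell by small amounts at the deposited scale, and no count of this list under the other scalings is given here. Of 63 tested (65 on the array) 34 fell (54%, background 22.7%) and 1 rose (1.59%, background 12.5%). The median was −0.23, and 61 of the 63 changes were below 0. With the covariate 0 were called lower and 1 higher. RPS2, of the small subunit, averaged 13.61 ± 0.10 in d1 arrays and 14.31 ± 0.05 in hatch arrays, and RPL22L1, a paralogue of a large-subunit protein, 10.59 ± 0.08 in d1 arrays and 11.42 ± 0.16 in hatch arrays. The 1 that rose was RPS27L, a paralogue that p53 induces in human cells, at 12.93 ± 0.13 in d1 arrays and 12.23 ± 0.04 in hatch arrays (change 0.70 ± 0.08, limma adjusted p = 3.21e-07). The median was −0.08 with the covariate and −0.38 with d3 in place of d1, where 58 were lower (d3 background 22.2%). Near-identical copies may share probes, so single members are uncertain.

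Of 61 tested subunits of the respiratory chain and ATP synthase 17 fell (27.9%, near the 22.7% of all tested genes) and 0 rose (3 at an unadjusted p under 0.05), with a median of −0.15. UQCRFS1, the Rieske protein of complex III, averaged 11.16 ± 0.36 in d1 arrays and 11.96 ± 0.13 in hatch arrays. With the covariate none was called (5 higher and 2 lower at an unadjusted p under 0.05) and the median was 0.01. At d3 against the same hatch arrays 38 were lower (d3 background 22.2%) and 0 higher (d3 background 15%), with a median of −0.32.

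**Figure D5:**
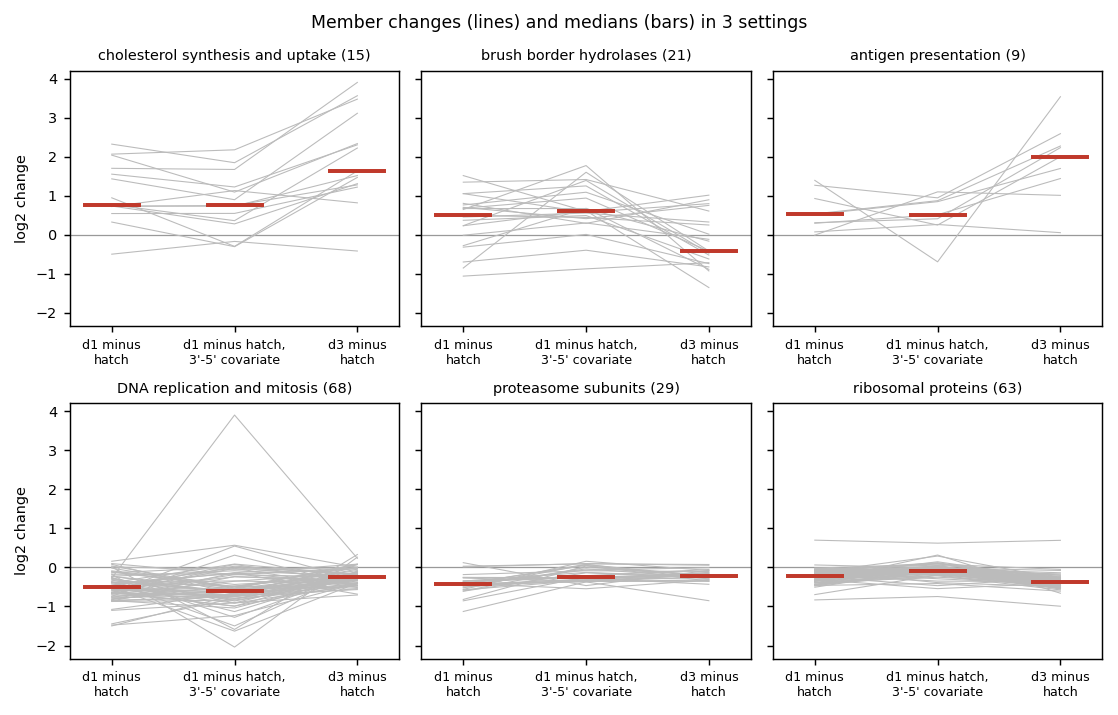
Log2 change (y axis) of each tested member (grey lines) and the list median (red bars) for 6 gene lists in 3 settings: d1 minus hatch, the same with the 3′ minus 5′ gap as a covariate, and d3 minus hatch, which shares the hatch arrays. The cholesterol median stays above 0 in all 3, while the hydrolase median is 0.49, 0.60 and −0.42.

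Markers of other cell types were examined beside these groups. The smooth muscle actin ACTG2 averaged 14.22 ± 0.08 in d1 arrays and 14.06 ± 0.11 in hatch arrays. Of 18 tested smooth muscle genes 1 rose (5.56%, background 12.5%) and 4 fell (22.2%, near the background of 22.7%). Their median was 0.08, and −0.37 with the covariate. Collagens COL1A1 and COL3A1 were not called from their main probe sets, while COL1A2 fell by 0.52 on the log2 scale and the basement membrane collagen COL4A2, with 1 of its 4 other probe sets called in the opposite direction, rose by 0.69 ± 0.13. Of 43 tested fibroblast and matrix genes 6 rose (14%, background 12.5%) and 6 fell (14%, background 22.7%). Their median was −0.05, and −0.25 with the covariate. The mean level of this list was 8.58 to 8.81 over d1 arrays and 8.63 to 8.85 over hatch arrays. STMN2, a tubulin-binding protein of neurons, averaged 8.94 ± 0.20 in d1 arrays and 9.79 ± 0.36 in hatch arrays, and the nicotinic receptor subunit CHRNA3 changed by −1.36 ± 0.20. Of 23 neuron and glia genes 2 rose (8.7%) and 5 fell (21.7%), near the 12.5% and 22.7% of all tested genes. The 2 that rose were S100B (change 1.19 ± 0.21) and SOX10 (change 0.48 ± 0.13), each with all d1 arrays above the hatch arrays. SOX10 was dim, at 4.30 ± 0.31 in d1 arrays and 3.82 ± 0.01 in hatch arrays. The mean level of the list was 5.45 to 5.62 over d1 arrays and 5.57 to 5.96 over hatch arrays. The median of the neuron and glia list was −0.17, and −0.16 with the covariate, with 17 changes below 0 and 6 above. With d3 in place of d1, 2 were higher (d3 background 15%) and 10 lower (d3 background 22.2%).

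Haemoglobin genes were called higher at d1, and pancreatic genes differed between arrays of one age. HBA1, a haemoglobin chain, read 8.08, 8.82, 9.77 and 9.38 in d1 arrays, against 6.93, 6.31, 7.59 and 8.40 in hatch arrays. Its arrays overlapped, and its change was 1.70 ± 0.36 (limma adjusted p = 0.000698), and 3.30 ± 0.75 with the covariate (limma adjusted p = 0.0241). HBAD changed by 1.52 ± 0.38 (limma adjusted p = 0.00283) and was also called with the covariate (limma adjusted p = 0.0282). Of 5 tested erythroid markers 2 rose (40%, background 12.5%) and 1 fell (20%, background 22.7%). Pancreatic amylase AMY2A read 6.59, 3.30, 8.64 and 9.35 in d1 arrays, against 3.23, 2.97, 3.30 and 8.55 in hatch arrays, and CPA1, a pancreatic carboxypeptidase, 2.55, 2.54, 4.17 and 3.33 in d1 arrays, against 2.51, 2.48, 2.52 and 2.92 in hatch arrays. No pancreatic gene of 12 tested was called higher (background 12.5%) or lower (background 22.7%). All 12 changes were above 0, between 0.01 and 2.46, with a median of 0.53 that was −0.03 with the covariate. CEL, CLPS and INS were at or below background on every d1 and hatch array and passed the filter only through other ages. For such genes a call was hardly possible, so the lack of calls says little. The mean level of the list was 3.08 to 4.93 over d1 arrays and 2.97 to 4.16 over hatch arrays. The part of blood and pancreas in the other results was not tested.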

How the data were processed

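RNA from intestine of male chicks had been labelled with biotin and hybridised to Affymetrix chicken arrays, per the labels. The deposited values are linear intensities per probe set, made with GCRMA per the submitters' processing notes. No version is stated in the sources used here, nor whether the arrays were summarised jointly. GCRMA estimates background from probe sequence, which makes low values depend on that estimate. From these values log2 was taken. Of 38535 probe sets, 153 controls, 177 with several symbols and 11037 with no listed gene were left out, and 27168 with 1 symbol were used. Genes over log2 4 in at least 4 arrays were kept (8396 of 13009 symbols). Symbols came from the platform annotation, and the gene IDs of 26853 used probe sets were found in the RefSeq table.

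Limma 3.58.1 (R 4.3.3) fitted the 28 arrays with a separate mean for each age, and the contrast of d1 minus hatch was tested after eBayes, with Benjamini-Hochberg adjustment over 8396 genes and a threshold of 0.05. Background was the 95th percentile of 541 control probe sets without a gene on each array, and a fold is a bound where all 4 arrays of an age were at or below it. Alternatives were other filters, scalings, offsets, probe set rules and priors, a minimum change, leaving out each array, and, chosen after seeing the data, the 3′ minus 5′ gap as a covariate and d3 in place of d1.

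The 50 gene lists and the ages compared were chosen with earlier results of these data known. Genes named are the 15 largest rises and falls among called genes whose arrays do not overlap, up to 3 called rises and falls per list, and defining markers. Not every gene that the rule allows is named. Figures were drawn with matplotlib 3.10.9.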

Additional observations from a re-analysis of the deposited data

Results flagged for a closer look

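In the genes given above, an array was marked where its gap to the nearest of the other 3 arrays of its age, divided by the range of all 4, exceeded Dixon's 95% critical value for 4 samples. This marked 15 of 228 groups of 4 arrays, and chance marks about 1 in 20. All values are log2 intensities. Among d1 arrays, replicate 1 was low for MVK (5.60) and for GNLY (7.51) and high for IL15 (11.32) and ATP12A (5.02). Replicate 3 was high for CD3E (5.77), and replicate 4 was high for LGR5 (5.15) and low for SLC5A1 (12.08).

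Among hatch arrays, replicate 4 was high for AMY2A (8.55), CPA1 (2.92) and AGR2 (13.13). Replicate 1 was high for GNLY (7.59) and COL1A2 (12.43), replicate 2 was low for SCARB1 (6.38), and replicate 3 was high for PER3 (4.07) and low for SLC38A4 (3.61).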

How the results depend on the processing

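No paired analysis was possible because the labels number the arrays without tying a number to a bird, line or pool across ages. Leaving out each array in turn gave 2544 to 2835 called genes, 872 to 1016 higher and 1666 to 1820 lower. Among list members it gave 11 to 13 cholesterol genes higher, 7 to 9 hydrolases higher, 21 to 25 proteasome subunits lower, 35 to 40 replication genes lower, and 23 to 27 solute carriers higher and 18 to 24 lower. For d3 against e20 it gave 4534 to 4722 genes, 1807 to 1947 higher and 2723 to 2823 lower. With no filter 1966 of 13009 genes and 56 of 295 solute carriers were higher. With the mean of all probe sets 6 hydrolases and 16 solute carriers were higher, with no total over all genes given for that rule. With a change of at least 1 required, 345 genes were called, 109 higher and 236 lower, with 6 cholesterol genes and 4 hydrolases higher, 1 proteasome subunit and 5 replication genes lower, and 6 solute carriers higher and 4 lower. The same minimum gave 1470 genes for d3 against e20, 806 higher and 664 lower. With the 3′ minus 5′ covariate 272 genes were called, 97 higher and 175 lower, with 2 cholesterol genes and 0 hydrolases higher, 0 proteasome subunits and 3 replication genes lower, and 5 solute carriers higher and 2 lower. The standard errors were larger in that fit. With d3 in place of d1, 6 hydrolases were higher (d3 background 15%), and 10 proteasome subunits and 17 replication genes lower (d3 background 22.2%).

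Single genes changed sign as follows, on the log2 scale. With the covariate these were ACTG2 (−0.0716), APOB (−0.45), BF2 (−0.70), CD3D (0.72), CD3E (−0.28), COL1A1 (−0.70), COL3A1 (−0.25), COL4A2 (−0.0469), CPA1 (−0.85), HERPUD1 (0.34), IRF8 (0.43), NARS2 (0.55) and PSMB1 (0.0373). With d3 in place of d1 they were AGR2 (0.44), CD3D (2.14), COL1A1 (−0.20), COL3A1 (−0.0041), IRF8 (0.81), OLFM4 (1.18), SLC16A10 (−0.0341) and SLC7A5 (0.35). With the mean of all probe sets they were CDX2 (−0.0150), COL3A1 (−0.63) and SI (−0.14), and with quantile normalisation CD3D (0.0027). With 1 array left out, VIL1 ranged between −0.0101 (without d1 replicate 1) and 0.147, and MX1 between −0.0164 (without hatch replicate 3) and 1.85. The causes were not tested. Values near background limit what can be said of the dimmest genes.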
